A study of Mus musculus with 12 samples.

Results

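The proteasome subunit gene promoters were examined for YY1 in mouse bone marrow cells that lack or carry Xist. The members were the protein-coding genes of the GENCODE M21 annotation (mm10, GRCm38) on the 19 autosomes whose symbol starts with Psma to Psmg followed by a digit, and they numbered 49 of 20807 autosomal protein-coding genes. By symbol, 19 belong to the core particle (Psma and Psmb), 19 to the regulatory particle (Psmc and Psmd), 6 are activators or an inhibitor (Psme and Psmf) and 4 are assembly chaperones (Psmg). The remaining gene, Psmc3ip, matches the symbol rule but encodes a factor of meiotic recombination and was kept apart. The rule itself uses symbols and positions and no measured value.

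The YY1 libraries of the series were made from the lineage-negative (Lin-) fraction of the bone marrow of female mice aged 3 months (strain 129Sv4/Jae x B6), 2 from wild-type (WT) mice and 2 from Xist knockout (XistΔ/Δ) mice. The knockout mice were homozygous, with both floxed Xist alleles deleted by Vav-iCre, a Cre recombinase driven by sequences of the blood-specific gene Vav1. The labels do not state whether WT mice carried the transgene. Lin- cells are what is left of the bone marrow once cells stained for CD11b, Gr-1, CD3ε, B220, CD8a, CD4 and TER-119 have been taken away, a mixture of stem and progenitor cells. The study asked where YY1 binding changes when Xist is lost. Chromatin immunoprecipitation and sequencing (ChIP-seq) gave 1 list of peaks per library, and each gene took the peaks within 3 kb of any of its transcript starts.

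The proteasome degrades proteins tagged with ubiquitin. Its core particle is a barrel of stacked rings in which alpha subunits gate the entrance and beta subunits carry the catalytic sites. The regulatory particle caps the barrel with a ring of ATPases that unfold substrates and with subunits that recognise and remove ubiquitin, and immune cells can exchange the catalytic subunits for the immunoproteasome set. YY1 is a transcription factor of the zinc-finger class found at many promoters of broadly expressed genes, often just downstream of the start.

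The promoter sequence shows where YY1 letters occur at these genes. RefSeq promoter windows (build GRCm38.p6, 300 bases, from 250 before to 50 after a start) were matched by symbol for 41 of the 49 members, with 44 windows. Psma8, Psmb1, Psmb2, Psmb7, Psmc3, Psmd3, Psmd7 and Psmg2 were not matched. The YY1 letters AANATGGC, searched on both strands, occurred in the windows of 6 members (14.6%), against 7.54% of the 15687 autosomal protein-coding genes with a window. Of the 33 members with a window and a YY1 peak in all 4 libraries 18.2% had a match, against 14.3% of all such genes. The share was 3.59% of all genes with a window and no peak. The 6 members held 8 matches, listed here with up to 11 bases on each side because they are the stretches under the peaks that carry the factor's own letters. Each is written in the direction of its gene, and the capitals mark the match.
Psmb5, chr14:54618153-54618182, minus strand: atgccaaaataAAAATGGCaatcttaacca
Psmb5, chr14:54618068-54618097, minus strand: tgcccggagtaAAAATGGCgccgcctccgt
Psmb5, chr14:54617976-54618005, minus strand: tgcccttgctaAACATGGCgctggctagcg
Psmd8, chr7:29180662-29180691, minus strand: gacttccgttcGCCATTTTgaatgacagca
Psmc5, chr11:106256177-106256206, plus strand: ccgagagagggAAGATGGCgcttgatgggc
Psma2, chr13:14613261-14613290, plus strand: ctttccgggtaAAGATGGCagagcgcggtt
Psmb6, chr11:70525383-70525406, plus strand: agtagcagaggAAGATGGCggccg
Psma4, chr9:54950801-54950830, plus strand: cacgcgcgggaGCCATATTcgccgcggatg

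All 8 matches lay inside the merged peak region of their gene, and none overlapped another of the motifs searched. On the gene's own strand lay 6, and 2 (Psmd8 and Psma4) were on the other strand. The 4 matches downstream of the start were those of Psmb5, Psmc5, Psma2 and Psmb6, and in each the letters ATG were an annotated start codon. Over all genes with a window, 229 of 373 such downstream matches on the gene's strand (61.4%) did the same, so the position is shared with other genes. A match describes letters, not a measured site.

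Peak width served as the measure of a peak, since the deposited score was 1 for every peak. Between 18.5% and 24.0% of the peaks of a list had 1 and the same width, called the most frequent width here. In every library it was also the smallest width taken by any autosomal protein-coding gene with a peak. The percentile of this smallest width was 42.1 and 40.6 in the replicate 1 libraries of WT and XistΔ/Δ. It was 7.99 and 5.47 in the replicate 2 libraries, where fewer regions lacked a peak. Overlapping peaks (1 bp or more) of the 4 lists were joined into 19768 regions, of which 14168 had a peak in at least 2 libraries (consensus regions), and each width was turned into a percentile among these regions in its own library, with 0 for no peak. Members with a YY1 match had mean percentiles over the 4 libraries of 72.5 to 96.7 (median 81.7, 6 members), and members with a peak and a window but no match had 7.58 to 96.7 (median 59.1, 34 members). The 96.7 without a match is that of Psmb11, which took its value from the region of Psmb5, the gene at 96.7 with a match. The next highest without a match was Psmd11, at 89.4. The windows of Psmb10 and Psmb11, both without a match, held no base of the gene's merged region. For these genes the lack of a match in the window does not describe the sequence under the peak. Over all genes with a peak the medians were 85.9 with a match (923 genes) and 60.1 without (7512 genes), so the members lay close to the other genes in both classes.

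Other motifs differed between the core and the regulatory genes. The ETS letters CCGGAAG, bound by ETS family factors, occurred in 9 of 16 regulatory genes with a window (56.2%) and in 1 of 15 core genes (6.67%), against 13.6% of all genes and 24.5% of genes with a peak in all 4 libraries. The SP/KLF letters GGGCGGG occurred in 10 of 16 regulatory genes (62.5%) and 4 of 15 core genes (26.7%), against 38.7% of all genes and 54.9% of genes with a peak in all 4 libraries. The CCAAT box went the other way, with 4 of 16 regulatory (25.0%) and 8 of 15 core genes (53.3%), against 41.7% of all genes and 43.0% of genes with a peak in all 4 libraries. The antioxidant element TGACNNNGC, read by NFE2L1 and NFE2L2, occurred in 6 of 41 members (14.6%), against 15.1% of all genes. Of the members with a peak in all 4 libraries 15.2% had it, against 17.1% of all such genes. No test was made of these shares. The letters were searched on both strands, and GGGCGGG can overlap TGACNNNGC, as it does at Psmd9. The median GC content of the members' windows was 58.2%, against 57.3% over all genes and 62.0% over genes with a peak in all 4 libraries. The median number of CpG was 19, against 14 and 23, so the members lay between these sets in both.

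**Figure D1:**
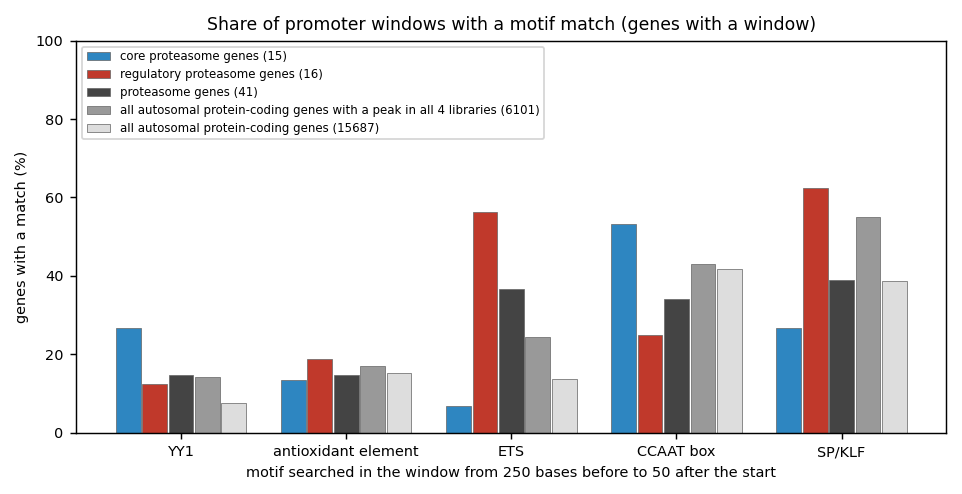
Share of genes (%, vertical axis) with at least 1 match of each motif (horizontal axis) in the promoter window; bars stand for core, regulatory and all proteasome genes with a window, for all genes with a YY1 peak in all 4 libraries and for all genes. The ETS bar reaches 56.2% for regulatory and 6.67% for core genes.

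The bases upstream of the start are printed for 4 members at the ends of the range. Psmb5 encodes the chymotrypsin-like catalytic subunit and shared the highest mean percentile of the members with a window, Psmd11, a scaffold subunit of the lid, had the highest among regulatory genes, Psmd9, a chaperone of base assembly, had the fewest peaks of the genes with any, and Psme2b, a copy of Psme2, had none. Capitals mark matches of any of the 5 motifs.
Psmb5, chr14:54617996-54618245, minus strand: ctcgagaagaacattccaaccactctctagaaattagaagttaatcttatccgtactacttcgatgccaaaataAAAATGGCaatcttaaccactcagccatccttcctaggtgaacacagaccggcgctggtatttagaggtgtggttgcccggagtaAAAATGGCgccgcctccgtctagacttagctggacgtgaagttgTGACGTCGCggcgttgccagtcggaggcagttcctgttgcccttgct
Psmd11, chr11:80428365-80428614, plus strand: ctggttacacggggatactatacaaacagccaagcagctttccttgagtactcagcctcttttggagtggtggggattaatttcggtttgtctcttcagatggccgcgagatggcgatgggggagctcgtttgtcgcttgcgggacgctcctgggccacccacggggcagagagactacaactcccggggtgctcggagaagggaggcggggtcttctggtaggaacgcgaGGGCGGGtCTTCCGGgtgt
Psmd9, chr5:123227940-123228189, plus strand: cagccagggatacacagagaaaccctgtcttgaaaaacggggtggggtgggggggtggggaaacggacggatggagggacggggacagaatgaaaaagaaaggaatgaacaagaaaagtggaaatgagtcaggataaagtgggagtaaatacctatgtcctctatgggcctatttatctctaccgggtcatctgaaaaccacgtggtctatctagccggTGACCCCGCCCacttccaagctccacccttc
Psme2b, chr11:48946411-48946660, minus strand: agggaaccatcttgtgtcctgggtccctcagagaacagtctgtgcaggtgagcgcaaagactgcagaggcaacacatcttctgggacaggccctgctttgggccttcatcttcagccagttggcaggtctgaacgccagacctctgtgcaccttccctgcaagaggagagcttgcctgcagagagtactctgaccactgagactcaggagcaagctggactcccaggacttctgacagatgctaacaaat

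Psmb5 shows YY1 letters at 2 places and an antioxidant element upstream of the start, Psmd11 an SP/KLF and an ETS match close to its start, and Psmd9 an antioxidant element and an SP/KLF match that share bases. Psme2b shows none of the 5. These 250 bases hold 15, 17, 8 and 2 CpG in that order, so the number was lowest at the gene without a peak.

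The libraries differed in depth, and in the approximate efficiency of the immunoprecipitation, by replicate number more than by genotype. Per the file headers this efficiency was 3.58% (WT) and 3.59% (XistΔ/Δ) in replicate 1, and 4.87% and 4.88% in replicate 2. Depth and efficiency therefore cannot be told apart here. WT replicates 1 and 2 gave 9553 and 15933 peaks, XistΔ/Δ replicates 1 and 2 gave 10075 and 18113, from 23.1 to 24.9 M tags (aligned reads as HOMER counts them) in replicate 1 and 50.0 to 59.5 M in replicate 2. Xist itself had a promoter peak in both WT libraries (3083 and 3222 bp) and in neither XistΔ/Δ library, which checks the genotype labels. Nothing in the labels says which mice gave which library, so the spread between replicates may be partly technical.

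Nearly all proteasome genes had a YY1 peak. A peak in all 4 libraries was found at 39 of the 49 members (79.6%), against 37.1% of the 20807 autosomal protein-coding genes, and 47 members had a peak in at least 2 libraries, against 48.4%. In single libraries, 43 (WT replicate 1), 47 (WT replicate 2), 42 (XistΔ/Δ replicate 1) and 47 (XistΔ/Δ replicate 2) members had a peak. Only Psma8 and Psme2b had none in any library, against 48.3% of all genes. Among genes of other large protein machines, 73 of 77 cytosolic ribosomal protein genes (94.8%) and 69 of 78 mitochondrial ones (88.5%) had a peak in all 4 libraries. No test was made of these counts, since genes are not replicates.

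**Figure D2:**
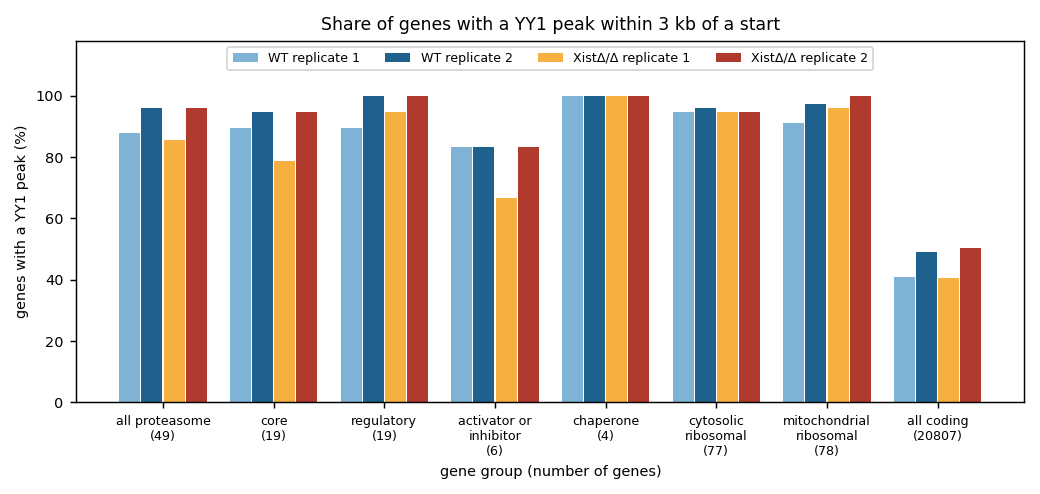
Share of genes (%, vertical axis) with a YY1 peak in each library, by gene group with the number of genes in brackets; 1 bar per library. Proteasome groups lie between 66.7% and 100%, and all coding genes between 40.7% and 50.3%.

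The groups of genes are described by their missing members, with no test. All 4 chaperones had a peak in all 4 libraries. Of the regulatory genes, 17 of 19 (89.5%) did, including all 6 ATPases (Psmc1 to Psmc6), and the exceptions were Psmd2 and Psmd9. Of the core genes, 14 of 19 (73.7%) did, with 6 of the 7 constitutive alpha genes and 5 of the 7 constitutive beta genes. The 14 include Psmb11, which was counted through the region of Psmb5. With a window of 1 kb, 13 core genes had a peak in all 4 libraries, against 35.9% of all genes. Without XistΔ/Δ replicate 1, 17 core and 17 regulatory genes had a peak in each of the remaining libraries, against 40.3% of all genes. Of the activators and the inhibitor, 4 of 6 (66.7%) did. Of the 5 genes of the immunoproteasome and its PA28 cap, 3 did, and all 5 had a peak in at least 3.

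The peaks lay at the starts. In 46 of the 47 members with a peak, a peak covered a transcript start in every library that had one. The exception was Psmb11. The centre of the widest peak lay a median of 32, 6, 2 and 5 bp downstream of the nearest start (WT replicates 1 and 2, then XistΔ/Δ replicates 1 and 2), and 24, 14, -2 and 7 bp over all genes with a peak. Over all genes with a peak, a start was covered in 92.4% to 93.6% per library. At Psma6, an alpha ring gene, the region (chr12:55398083-55399513) sits at an internal start rather than the outermost one. The same holds for Psmd9 (chr5:123227914-123228617), Psmd5 (chr2:34869676-34871887) and Psmf1 (chr2:151740567-151741811). At Psmb10 the region (chr8:105936913-105938073) covers internal starts and ends before the outermost one.

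**Figure D3:**
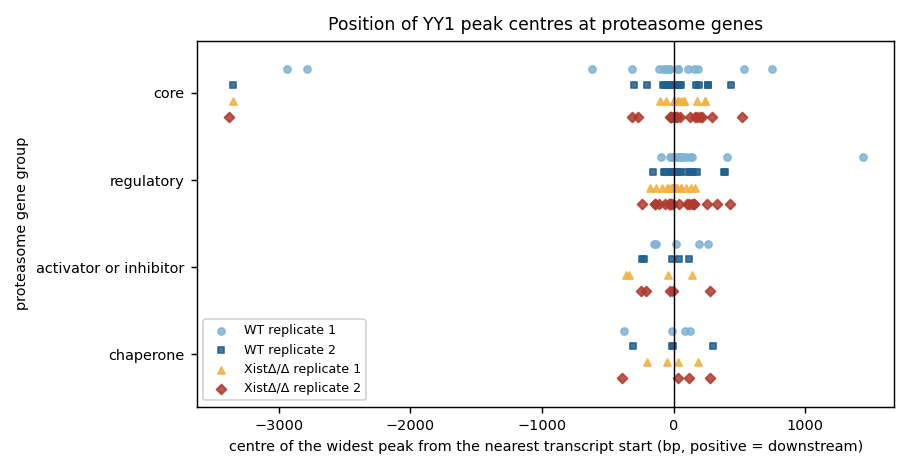
Distance in bp (horizontal axis, positive downstream) from the nearest transcript start to the centre of the widest peak, for each gene with a peak, by group and library; Psmc3ip is not drawn. Most centres lie close to 0, and the points farthest upstream belong to Psmb11 and to Psmb3 in WT replicate 1, where a second peak of the same width covered the start.

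Several regions cannot be given to the proteasome gene alone. A divergent coding gene started within 1 kb of 12 members (24.5%), against 12.7% of all genes. In 12 members with a peak, another coding start lay under the region. Such partners were Mrpl32 at Psma2, Ss18l1 at Psma7, Tbp at Psmb1, Tap1 at Psmb9, Dnajc2 at Psmc2, Ftsj3 at Psmc5, Sirt3 at Psmd13, Rnf31 at Psme2 and Cep76 at Psmg2. The region of 31 members had no other coding start within 3 kb.

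The widest peaks were found at core genes. Psmb1 (ENSMUSG00000014769, chromosome 17, 15475021 to 15499751, minus strand), a non-catalytic beta subunit, had peaks of 3427 and 3804 bp for WT replicates 1 and 2, against 1481 and 3380 bp for XistΔ/Δ replicates 1 and 2, the order kept for all genes that follow (mean percentile 97.3). In XistΔ/Δ replicate 1 the region held 2 peaks where the other libraries had 1 each, and the same region covers the start of Tbp, the TATA-binding protein gene. Psmb5 had peaks of 3872 and 2473 bp for WT, against 1974 and 2752 bp for XistΔ/Δ, in a region (chr14:54616675-54620588) at mean percentile 96.7. Psmb11, the thymus-specific catalytic subunit, took the same values only because an upstream transcript start of it lies within 3 kb of that region. Its own small region (chr14:54620943-54621613) was called in XistΔ/Δ replicate 2 (671 bp) and, at the most frequent width, in WT replicate 1, and in no other library.

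Psma7, an alpha ring subunit, had peaks of 1571 and 1925 bp for WT, against 1177 and 2057 bp for XistΔ/Δ (mean percentile 87.2). Psmd11 had 1580 and 1992 bp for WT, against 1350 and 2173 bp for XistΔ/Δ (mean percentile 89.4). Psmd5, an assembly chaperone of the base despite its symbol, had 1254 and 1940 bp for WT, against 1334 and 2212 bp for XistΔ/Δ (mean percentile 87.2). In these 3 genes the deeper replicate 2 library had the wider peak in both genotypes. That held for 40 of the 47 members in WT and for 46 in XistΔ/Δ, so widths were compared between genotypes only within a replicate number and through percentiles.

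**Figure D4:**
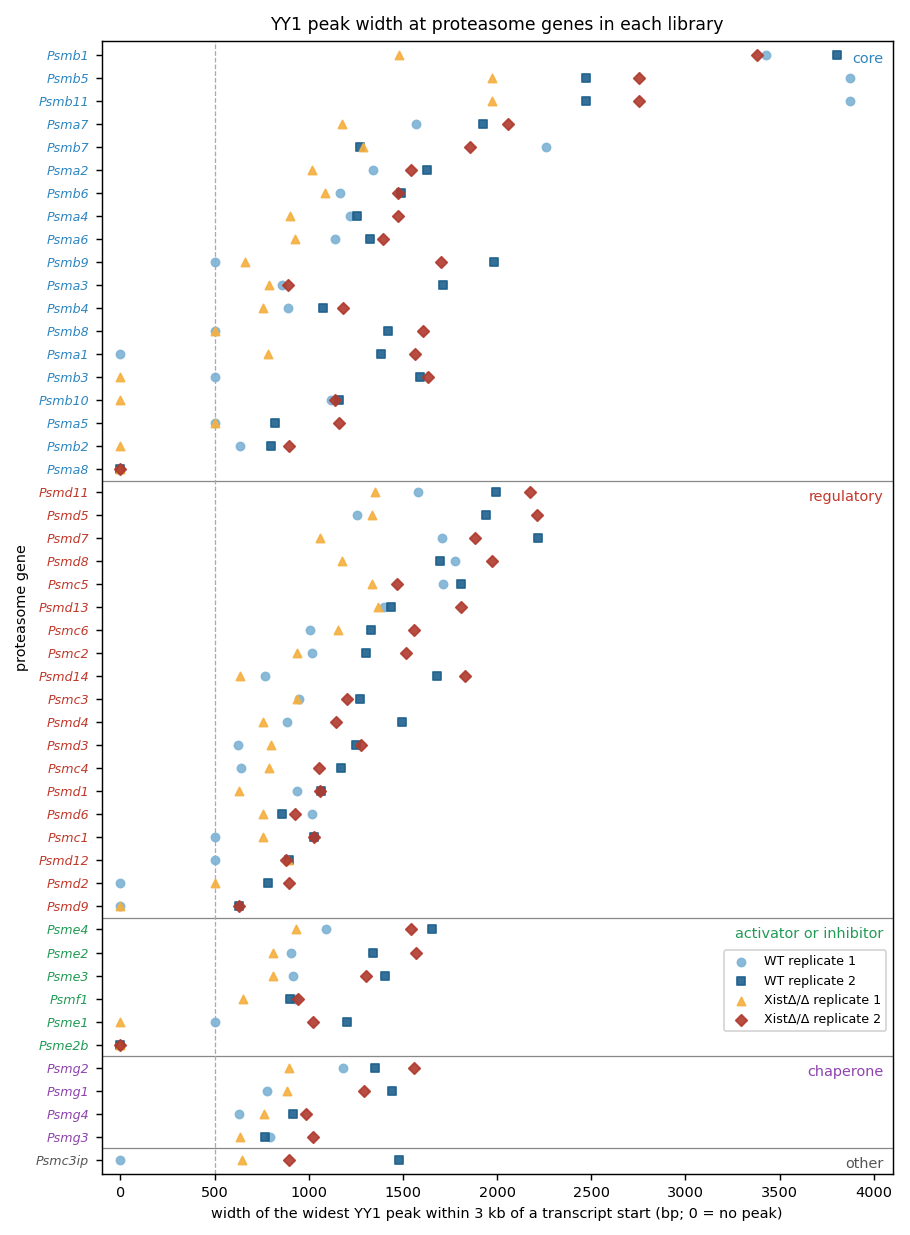
Width in bp (horizontal axis, 0 for no peak) of the widest YY1 peak within 3 kb of a start of each proteasome gene, 1 symbol per library; genes are grouped and, within a group, ordered by mean percentile. The dashed line marks the most frequent width. Symbols at 0 other than those of Psma8 and Psme2b belong to replicate 1 libraries.

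Missing peaks fell on the shallower libraries. Of the 7 members with a peak in 3 libraries, 3 lacked it in WT replicate 1 and 4 in XistΔ/Δ replicate 1. Over all genes, 670 and 677 of the 1366 genes with a peak in 3 libraries lacked it in these libraries, 16 in WT replicate 2 and 3 in XistΔ/Δ replicate 2. No member had peaks in both libraries of 1 genotype and in neither of the other, as 15 (WT only) and 43 (XistΔ/Δ only) of all genes did. The part of depth in the missing peaks was not tested. With lists of equal length (9553 peaks each), 38 members had a peak in all 4 libraries, against 35% of all genes. Cutting a list cannot restore a peak that a replicate 1 library lacks, so this count does not bear on that part.

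In the alpha ring, Psma1 had no peak in WT replicate 1 and peaks of 1381 bp in WT replicate 2 and of 786 and 1563 bp in XistΔ/Δ. In the beta ring, Psmb2 had peaks of 637 and 798 bp in WT, none in XistΔ/Δ replicate 1 and 896 bp in XistΔ/Δ replicate 2. Psmb3 had a peak of the most frequent width and 1 of 1592 bp in WT, none in XistΔ/Δ replicate 1 and 1632 bp in XistΔ/Δ replicate 2. Both are non-catalytic beta subunits, and in each the replicate 2 libraries of the genotypes were within 100 bp of each other.

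In the regulatory particle, Psmd2, the scaffold that receives ubiquitin shuttle factors, had no peak in WT replicate 1, 784 bp in WT replicate 2, the most frequent width in XistΔ/Δ replicate 1 and 895 bp in XistΔ/Δ replicate 2. Psmd9 had peaks in the replicate 2 libraries alone, of 627 bp in WT and 632 bp in XistΔ/Δ, and the lowest mean percentile of the members with a peak (7.58). Psmc3ip had no peak in WT replicate 1, 1478 bp in WT replicate 2 and 646 and 894 bp in XistΔ/Δ, so its XistΔ/Δ value was above WT in replicate 1 and below it in replicate 2.

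Immunoproteasome genes are induced by interferon and expressed in blood cells. Psmb8 had peaks of the most frequent width in both replicate 1 libraries, with 1420 bp in WT and 1604 bp in XistΔ/Δ in replicate 2. Psmb9, which shares its region with the peptide transporter gene Tap1, had the most frequent width in WT replicate 1 and 1986 bp in WT replicate 2, against 659 and 1700 bp for XistΔ/Δ. Psmb10 had 1117 and 1161 bp in WT, none in XistΔ/Δ replicate 1 and 1139 bp in XistΔ/Δ replicate 2. In replicate 2 all 3 genes had a peak in both genotypes, and Psmb10 was the gene without 1 in replicate 1.

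Psme1 and Psme2 encode the PA28 cap that works with the immunoproteasome. Psme1 had the most frequent width in WT replicate 1, 1202 bp in WT replicate 2, none in XistΔ/Δ replicate 1 and 1020 bp in XistΔ/Δ replicate 2. Psme2 had 907 and 1339 bp for WT, against 812 and 1571 bp for XistΔ/Δ. Psmf1, an inhibitor of the core particle, had 928 and 901 bp for WT, against 650 and 942 bp for XistΔ/Δ. The proteasome gene of the X chromosome, Psmd10, is no member by the rule and had no peak in WT replicate 1, 969 bp in WT replicate 2 and 635 and 751 bp in XistΔ/Δ, in a region shared with Atg4a. Psma8, the testis-specific alpha subunit, and Psme2b had no peak in any library.

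The level of the members was like that of other genes with peaks, and it did not separate the genotypes. The median percentile of the 47 members with a consensus region was 69.6 and 67.9 for WT, against 68.8 and 72.9 for XistΔ/Δ. The mean of these medians was 68.7 ± 1.2 for WT and 70.8 ± 2.95 for XistΔ/Δ (SD, n = 2 each), and over all genes with such a region it was 67.1 ± 0.588 and 66.6 ± 0.709. The ranges of the genotypes overlapped among the members. Core genes had medians of 74.8 ± 4.0 for WT and 72.7 ± 4.47 for XistΔ/Δ, regulatory genes 68.0 ± 3.7 and 67.5 ± 5.9, activators and the inhibitor 68.1 ± 1.08 and 66.9 ± 2.58, and chaperones 58.9 ± 4.57 and 61.6 ± 7.29 (SD, n = 2 throughout). The 5 immunoproteasome and PA28 genes had 54.7 ± 17.9 and 58.6 ± 25.4, since their medians in replicate 1 were those of the most frequent peak width.

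Promoter peaks of the members moved in both directions. The percentile was higher in XistΔ/Δ within both replicate numbers at 10 of 47 members (21.3%), against 22.5% of the 10056 genes with a consensus region, and lower at 10 (21.3%), against 23.9%. The other 27 changed sign between the numbers or did not differ in one of them. Among these 27, Psma5 and Psmb8 had the most frequent width in both replicate 1 libraries. Their replicate 1 difference of -1.43 points is therefore no difference in width. Among the 39 members with a peak in all 4 libraries, 8 were higher and 8 lower, against 24.0% and 26.5% of the 7709 genes of that kind. All these shares lay near those of all genes. By group, 7 regulatory genes were higher and 4 lower of 19, 1 core gene was higher and 3 lower of 18, 1 activator was higher and 3 lower of 5, and 1 chaperone was higher and none lower of 4.

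Both XistΔ/Δ libraries ranked above both WT libraries at 7 members, against 12.1% of all genes, and below both at 8, against 14.0%. With 2 libraries per genotype a two-sided exact permutation test cannot give less than p = 0.333. Each of these genes had that value because the absence of overlap fixes it, so the test cannot decide whether any of them differed. Among these genes Psmd2 had the largest positive difference (XistΔ/Δ minus WT, mean of both replicate numbers), 22.7 percentile points, and it rests on the missing peak in WT replicate 1. Within replicate 2 the difference was 4.85 points. Psmb10 had the largest negative difference, -40.0 points, which rests on the missing peak in XistΔ/Δ replicate 1, and within replicate 2 it was -2.53 points.

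The other genes without overlap had a peak in all 4 libraries. Psmc6, an ATPase of the base, had percentiles of 72.3 and 67.0 for WT, against 83.9 and 76.0 for XistΔ/Δ. Psmd3, a lid subunit, had 47.8 and 63.1 for WT, against 67.8 and 63.4 for XistΔ/Δ, so that the replicate 2 libraries differed by 0.279 points. Psmc2, another ATPase, had 72.7 and 65.4 for WT, against 75.5 and 74.6 for XistΔ/Δ, where the WT replicate 1 value came from a second region downstream of the start. That second region alone had 72.7 and 59.7 for WT, against 71.8 and 47.2 for XistΔ/Δ, lower within both replicate numbers. The region at the start had 59.7 and 65.4 for WT, against the same 75.5 and 74.6. Psmd5 had 82.2 and 86.0 for WT, against 89.6 and 91.1 for XistΔ/Δ. In these 4 genes both XistΔ/Δ values lay above both WT values.

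In the other direction, Psmd4, a ubiquitin receptor, had percentiles of 66.0 and 73.6 for WT, against 61.5 and 56.1 for XistΔ/Δ. Psmd1, a scaffold of the base, had 70.0 and 53.6 for WT, against 49.8 and 52.7 for XistΔ/Δ. Psmd7, the lid partner of the deubiquitinase, had 91.9 and 90.5 for WT, against 80.8 and 85.3 for XistΔ/Δ. Psma2 had 84.6 and 78.0 for WT, against 77.7 and 75.6 for XistΔ/Δ. In these 4 genes both XistΔ/Δ values lay below both WT values, but the mean difference of Psmd1, Psmd7 and Psma2 changed sign when the order of the deposited list was the rank in place of width (0.967, 0.392 and 0.639 points). Psma3, an alpha ring gene named after its values were seen, had the largest mean difference of the members with a peak in all 4 libraries (-21.3 points), but its values of 65.4 and 80.6 for WT, against 66.7 and 36.8 for XistΔ/Δ, overlapped.

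**Figure D5:**
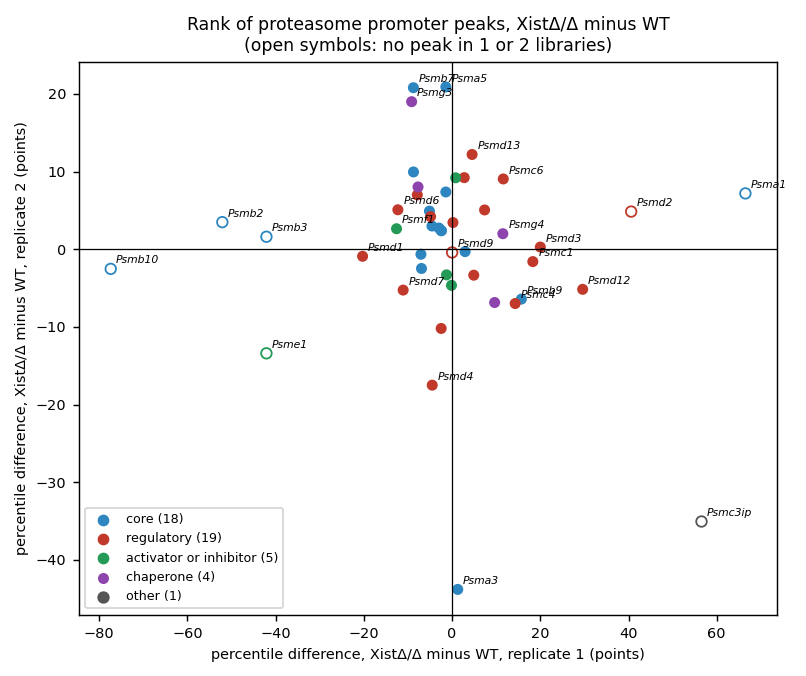
Percentile difference (points, XistΔ/Δ minus WT) of the 47 members with a consensus region in replicate 1 (horizontal axis) and replicate 2 (vertical axis); open symbols are genes with no peak in 1 or 2 libraries. The points lie in all 4 quadrants, and those farthest from 0 in replicate 1 are open symbols such as Psmb10 (-77.4) and Psma1 (66.5).

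Genes that work with the proteasome under other symbols also had YY1 peaks. All 22 genes compared, among them Uba1 on the X chromosome, had a peak in all 4 libraries, against 37.1% of autosomal protein-coding genes. Among them are the assembly factor Pomp and proteins that belong to or bind the regulatory particle (Adrm1, Sem1, Usp14). Others are transcription factors (Nfe2l1, Nfe2l2), shuttle and unfolding factors (Rad23b, Vcp) and the ubiquitin gene Ubb. Nfe2l1, which raises transcription of proteasome genes when the proteasome is impaired, had percentiles of 95.3 and 94.0 for WT, against 96.8 and 93.6 for XistΔ/Δ. Pomp, the maturation factor of the core particle, had the lowest mean percentile of them (52.5), with 55.1 and 50.9 for WT, against 56.4 and 47.5 for XistΔ/Δ. Of the 21 on autosomes, 6 (28.6%) were higher in XistΔ/Δ within both replicate numbers and 3 (14.3%) were lower. Over the autosomal genes with a consensus region these shares were 22.5% and 23.9%. Uba1 was also higher. The median of the mean percentile of all 22 was 80.8, against 67.1 for the proteasome genes and 65.6 for all genes.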

How the data were processed

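Per the methods of the study, reads of YY1 ChIP-seq on micrococcal nuclease digested chromatin were trimmed with Trim Galore, aligned to mm10 with Bowtie2 2.3.5.1 and filtered with SAMtools 1.10, and duplicates were removed. Per the file headers, HOMER called peaks in each library separately with no input library named, at a false discovery rate of 0.001 and a tag density 4 fold above the surroundings. The deeper libraries had more peaks, and the part of open chromatin in the peaks was not tested. The authors deposited peak positions with a score that is 1 for every peak, so the score was not used and width (end minus start, bp) was ranked. Tags per peak were not used, and the 8 histone samples were not analysed here. Order in the list was not explained by the headers.

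Members, gene lists and motifs were chosen with earlier results of these data known. Of the list of related genes, 3 are not reported here and were left out of its counts, for a reason unrelated to their values. Tag directory names in the file headers number the libraries differently from the labels, whose replicate numbers were used; a run number in the file names is shared by libraries with the same label number. Positions and transcript starts came from GENCODE M21. A gene took the widest peak and the highest percentile within 3 kb (3000 bp) of any transcript start, ties shared their mean rank, and a gene was ranked where a region of it was called in at least 2 libraries. Genes named with values lacked a peak in a library, had 1 of the 6 highest mean percentiles, had genotypes that did not overlap with the same direction in both numbers (at most 5 each way), or were set by name (immunoproteasome, PA28, tissue-restricted genes, Psmc3ip, Psmf1, Psmd10). Python 3.11.15, pandas 2.3.3, numpy 2.4.6 and scipy 1.17.1 were used, and the code was tested on simulated peak lists.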

Additional observations from a re-analysis of the deposited data

How the results depend on the processing

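Counts of genes with a peak, in all 4 or at least 2 libraries, moved little under every alternative run (windows, coding starts, wider peaks, equal lists, overlap, leaving out a library). In all 4 libraries 34 to 39 members had a peak (69.4% to 79.6%), against 31.6% to 37.1% of all genes. When a library was left out, 39 to 43 members had a peak in the 3 that remain (79.6% to 87.8%), against 37.1% to 40.3%. The counts for core genes (11 to 14 in all 4, 14 to 17 in the 3 that remain) and regulatory genes (15 to 17 and 17 to 18) were chosen after seeing the data. Leaving out a library leaves 1 replicate number, so direction then rests on 1 comparison: 19 to 28 members were higher and 19 to 27 lower, against 48.8% to 49.3% and 50.7% to 50.9% of all genes. With no replicate block, where both XistΔ/Δ libraries must lie above or below both WT libraries, 7 were higher and 8 lower in place of 10 and 10 paired by number. The shares of all genes were then 12.1% and 14%. The other alternatives gave 9 to 13 each way, against 21.5% to 24.8% of all genes higher and 20.2% to 25.1% lower. What the replicate number stands for is not stated, and the deviations of libraries that share it correlated at 0.254 across 10043 genes, which with 2 pairs is no proof of pairing. The median percentile of the members, 68.7 in WT and 70.8 in XistΔ/Δ, was 62.4 and 65.0 with wider peaks only and 55.2 and 57.9 with equal lists. Ranked among all 20807 autosomal protein-coding genes, 48.3% of which had no peak in any library, it was 76.9 and 78.6. That scale is not the scale of the other values. By order in the list the median was 71.8 and 70.6, where XistΔ/Δ lay below WT. Leaving out a library gave 58.4 to 68.2 in WT and 57.6 to 72.5 in XistΔ/Δ. By order in the list, the differences of Psmd1 (0.967), Psmd7 (0.392) and Psma2 (0.639) turned positive, and the cause was not tested. The number of libraries, depth and the many peaks of equal width limit every rank.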
